A study of Mus musculus with 56 samples.

Results

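Liver RNA from mice given the low or the middle dose of chrysene was compared with liver RNA from mice given the vehicle alone. By the sample titles, 14 arrays entered the comparison, out of 19 liver arrays and 56 arrays in the series: 9 dosed mice (5 of D1 and 4 of D2) and 5 vehicle mice (D0). The animals were adult male MutaMouse, a strain that carries a bacterial lacZ transgene for scoring mutations, about 14 weeks old in the labels. Each was gavaged daily for 28 days with olive oil, which held no chrysene in D0, 17.5 mg/kg body weight a day in D1, 50 in D2 and 150 in D3. Livers were collected 72 hours after the last dose. RNA came from a random slice of the left lobe, was labelled with Cy5 and was hybridised against a universal mouse reference RNA in Cy3, with no dye swaps. Every array was a separate mouse, and every value below is the log2 ratio of liver over reference, so it ranks mice for 1 probe and not genes against each other. The 5 D3 livers entered the fit for the estimate of spread and are used for comparison only.

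Chrysene is a polycyclic aromatic hydrocarbon of fused benzene rings. Such compounds bind the aryl hydrocarbon receptor (AhR), a transcription factor that enters the nucleus, pairs with ARNT and binds promoters and enhancers holding the core GCGTG. Its classic targets are the P450 enzymes of family 1, which oxidise the hydrocarbon and in doing so can form DNA-reactive metabolites. Damaged DNA can stabilise p53, electrophilic metabolites can release NRF2, and the liver responds to inflammation by secreting acute phase proteins. The liver is also strongly rhythmic, with the clock activator ARNTL driving repressors and output factors through the E-box CACGTG.

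No gene passed as changed at the low and middle doses. Of 24716 probes tested (19371 gene names), 0 passed a Benjamini-Hochberg adjusted p of 0.05 with a fold change of 1.5 in limma, and 0 passed without the fold limit. With the array column as a covariate, a setting discussed with the array layout, 14 genes passed. A nominal call below means an unadjusted limma p up to 0.05, that is, a 95% interval of the difference that leaves out 0. Nominal calls numbered 879 probes (3.56% of those tested) and 843 gene names, 446 of the gene names being higher in the dosed livers and 398 lower, with 1 called in both directions on different probes. A fold change of at least 1.5 was reached by 87 probes (0.352%). The median 95% interval of a probe reached 0.18 on either side of the log2 difference, or 1.13-fold. No list of genes or named gene below passed the adjusted test, and differences are therefore given as values.

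The same held for each dose. D1 against D0 gave 0 changed genes, with nominal calls at 3.61% of probes and a smallest adjusted p of 0.172. In D2 against D0 there were 0, with 3.8% of probes and a smallest adjusted p of 0.57. D2 against D1 gave 0 of 24716 as well, with nominal calls at 3.58% of probes. Against the pooled lower doses D3 also gave 0, with 2.95% of probes (1.47% higher and 1.48% lower). In gene names the nominal calls numbered 857, 907, 856 and 705 in that order.

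Complete separation of the groups was rare. In 15 probes (0.0607% of all tested) the 9 dosed livers did not overlap the 5 vehicle livers. All 9 lay above in 8 probes (0.0324%), of Abhd18, Cnpy3, Hs2st1, Ncoa3, Pef1, Rtl6, Saal1 and Zfp746. Ncoa3 was well above background in 1 of 5 vehicle livers, 3 of 5 D1 livers and 0 of 4 D2 livers and has no fold here. The other probes had fold differences of 1.09 to 1.22. All 9 lay below in 7 probes (0.0283%). One of these, without a symbol, was well above background in 2 of 5 vehicle livers and 0 of 9 dosed livers and has no fold here, and the others had folds of 1.07 to 1.19. Of the 7 probes 4 had a symbol, 1700025G04Rik, Clta, L1td1 and Rbm5. Clta encodes a clathrin light chain and Rbm5 an RNA-binding splicing regulator.

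The promoters of the AhR targets Cyp1a1 and Tiparp are shown because they hold the core to which the receptor pair binds. Both are RefSeq sequences of build GRCm38.p6, from 250 bases before to 50 after the gene's start, with each GCGTG on either strand in capitals. The Cyp1a1 promoter (chr9:57697363-57697662, plus strand) holds 1 core, which begins at position -54 on the plus strand. In Tiparp (chr3:65528197-65528496, plus strand) the only core reads on the opposite strand, as CACGC, from position -170. A core was present in 32.4% of all 32851 mouse promoters of the table, and none was in the Cyp1a2 and Nqo1 windows. The Cyp1b1 window, not shown, holds 1 core at -76 on the strand opposite to the gene.
Cyp1a1: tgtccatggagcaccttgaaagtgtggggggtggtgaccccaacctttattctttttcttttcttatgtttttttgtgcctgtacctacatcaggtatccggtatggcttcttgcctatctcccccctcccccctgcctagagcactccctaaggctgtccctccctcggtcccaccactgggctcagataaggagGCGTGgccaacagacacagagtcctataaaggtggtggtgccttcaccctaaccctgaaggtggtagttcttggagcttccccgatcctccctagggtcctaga
Tiparp: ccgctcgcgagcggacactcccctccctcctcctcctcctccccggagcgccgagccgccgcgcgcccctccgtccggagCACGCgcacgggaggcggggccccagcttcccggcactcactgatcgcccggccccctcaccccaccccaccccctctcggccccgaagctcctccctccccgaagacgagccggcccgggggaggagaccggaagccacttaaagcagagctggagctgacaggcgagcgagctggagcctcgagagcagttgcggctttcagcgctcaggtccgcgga

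Few AhR target genes were nominal calls. Of 12 in the list 11 were tested (Ahrr, the repressor of the receptor, was too dim), and 1 was nominally higher and 0 lower, where 1.87% of all probes were higher and 1.69% lower. Their median log2 difference was 0.00, equal to the 0.00 over all 12624 named genes. List members are named genes, each read on its brightest probe, whereas the shares set beside the lists cover all probes. Of the 12624 named genes 286 were nominally higher and 170 lower in the pooled comparison, and 321 and 213 in D2. Cyp1a1, the enzyme most strongly induced by AhR ligands, read 0.54, 0.10, 0.64, 0.18 and 0.40 in the 5 vehicle livers, and from -0.01 through a median of 0.23 to 0.45 in the dosed livers. This probe was well above background in 2 of 5 vehicle livers, 0 of 9 dosed livers and 1 of 5 D3 livers. Its values lie near the limit of detection, so no difference is given and a small change in either direction was not detectable here.

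Cyp1a2, the constitutive hepatic member of the family, was read from a bright probe. In the vehicle livers it read 4.55, 4.54, 4.51, 4.59 and 4.33, and in the dosed livers 4.32 to 4.77 with a median of 4.56. The groups overlapped throughout. The pooled difference was 0.03 (-0.13 to 0.19), an interval of 0.917- to 1.14-fold. Its D1 and D2 differences were 0.04 and 0.02. Among the remaining targets Tiparp, an ADP-ribosyltransferase that feeds back on the receptor, differed by 0.08 (0.02 without mouse 1, 0.13 without mouse 4). Nqo1, a quinone reductase, differed by -0.06. Cyp1b1 differed by -0.10, with -0.21 without mouse 5 and -0.03 without mouse 4. The Cyp1b1 probe was well above background in 3 of 5 vehicle livers, 2 of 5 D1 livers and 2 of 4 D2 livers. Ugt1a6a, which conjugates phenols with glucuronic acid, was the 1 called member, higher by 0.19 (95% interval 0.03 to 0.34, adjusted p = 1). It read 0.45, 0.30, 0.41, -0.03 and 0.31 in D0 and 0.29 to 0.66 in the dosed livers, 4 of which exceeded every vehicle liver. Without mouse 4 of the vehicle group its difference was 0.11. Cyp2s1, an extrahepatic P450, differed by -0.20 (-0.54 to 0.14), with -0.41 without mouse 5 and -0.12 without mouse 2.

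**Figure D1:**
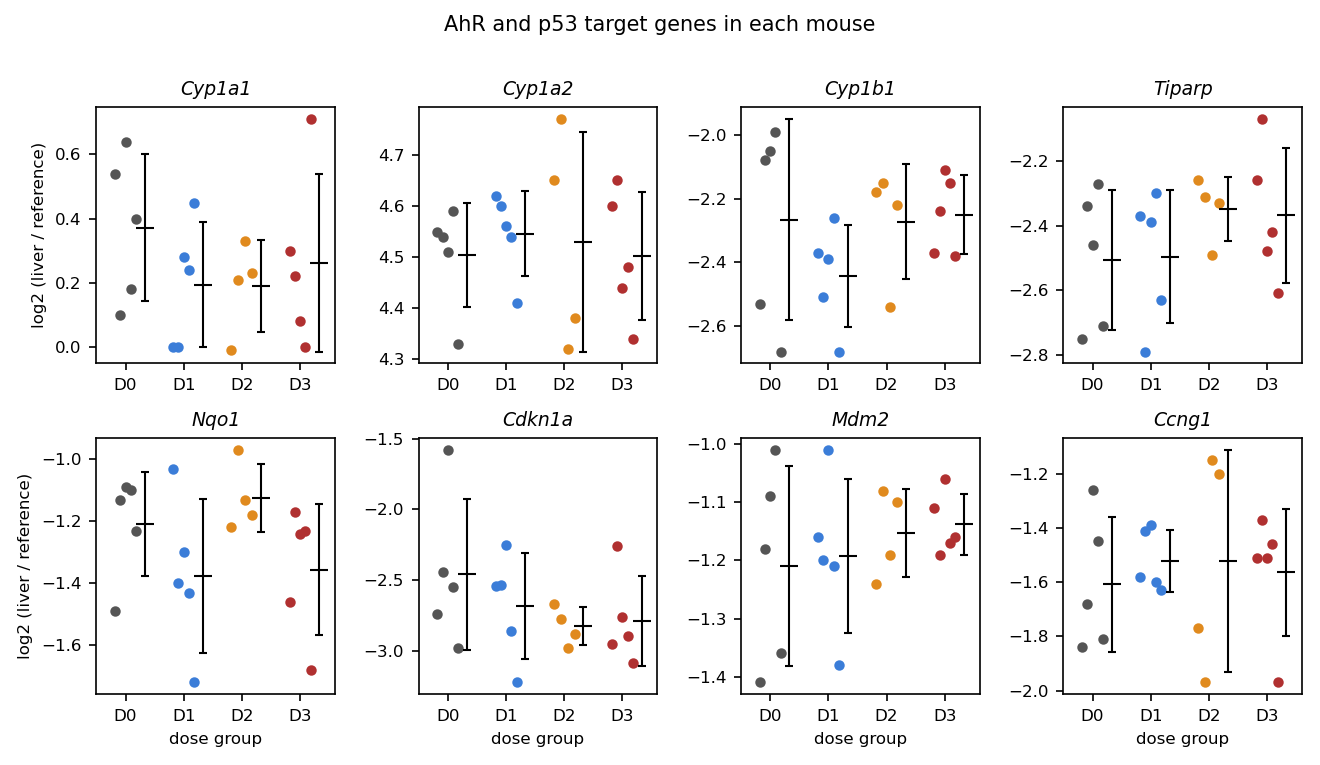
Log2 ratio of liver over reference (vertical axis, scale differs by panel) for 5 AhR targets and 3 p53 targets in D0, D1, D2 and D3. Points are single mice and the bars beside them show mean and SD. D1 and D2 livers overlap the vehicle livers in every panel, and Cyp1a2 stays between 4.32 and 4.77 in the 9 livers of D1 and D2.

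Few damage-response genes were nominal calls. Of 21 tested p53 targets 1 was nominally higher and 0 lower (median difference 0.04), and of 24 excision repair genes likewise 1 and 0 (median 0.02), beside 1.87% of all probes higher and 1.69% lower. Cdkn1a, the p21 inhibitor of cell cycle kinases, read -2.74, -2.44, -1.58, -2.55 and -2.98 in D0 and -3.22 to -2.25 with a median of -2.77 in the dosed livers. Mouse 3 of the vehicle group was the highest of all 14. The pooled difference was -0.29 (-0.69 to 0.12), and it was -0.07 without mouse 3 and -0.42 without mouse 5. Mdm2, the ligase that degrades p53, differed by 0.04, an interval of 0.926- to 1.13-fold. Ccng1, cyclin G1, differed by 0.09 (-0.19 to 0.37), with 0.03 without mouse 1 and 0.18 without mouse 3. Plk2, a polo-like kinase, differed by 0.22 (-0.10 to 0.53), or 0.08 without mouse 5. The called member was Sesn1, a sestrin that restrains mTORC1. It was 0.15, -0.04, 0.07, -0.07 and -0.08 in D0 and 0.04 to 0.39 in the dosed livers, 6 of which lay above every vehicle liver (difference 0.20, 95% interval 0.06 to 0.33, adjusted p = 1). Among repair genes Ercc2, the helicase XPD of transcription factor TFIIH, was higher by 0.16 (95% interval 0.02 to 0.30). Pold1, the catalytic subunit of DNA polymerase delta, differed by 0.11 (95% interval -0.02 to 0.24) and was not a nominal call.

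Within the lists of NRF2 targets and glutathione S-transferases the nominal calls were lower. Of 21 glutathione S-transferases 0 were higher and 5 lower, beside 1.69% of all probes lower. Of 19 NRF2 targets 0 were higher and 3 lower, with a median difference of -0.06, and these 3 (Gstm3, Gstm1 and Gsta4) are also among the 5 transferases. These enzymes join glutathione to electrophiles. Gstm3 read 3.40, 3.75, 4.47, 3.49 and 3.44 in the vehicle livers and 2.77 to 3.48 with a median of 3.20 in the dosed livers. Of the 9 dosed livers 8 lay below the lowest vehicle liver. The difference was -0.52 (-0.82 to -0.22, adjusted p = 1), and within slides 1, 2 and 3 it was -0.50, -0.68 and -0.39. Without mouse 3 of the vehicle group it was -0.33. Slide 1 held only mouse 2 of the vehicle group, so every slide 1 difference from D0 given here is set against that mouse alone. Before normalization the liver channel (Cy5) of this probe was higher in the dosed livers by 0.60 and the reference channel (Cy3) by 1.20, so the lower ratio came with a brighter reference signal and not with a dimmer liver signal. A further probe of the same gene gave 0.02. Gstm family members are near copies of each other and their probes may share signal.

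Gstm1 was lower by 0.29 (95% interval -0.52 to -0.07), from 4.34, 3.63, 3.72, 4.17 and 4.16 in D0 to 3.34 to 4.02 in the dosed livers. Only 2 dosed livers lay below every vehicle liver, and within slides 1, 2 and 3 the difference was 0.12, -0.17 and -0.65. Gsta3 was lower by 0.23 (95% interval -0.39 to -0.06), with 0.09, -0.27 and -0.40 within slides. Gsta4, which clears lipid aldehydes, was lower by 0.17 (95% interval -0.33 to 0.00, the upper bound lying just under 0), with 7 of 9 dosed livers below every vehicle liver. Over the alternatives tried, 1 to 8 glutathione transferases were lower.

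Inflammatory markers were split. Of 24 acute phase proteins 3 were nominally higher and 1 lower, beside 1.87% and 1.69% of all probes, with a median difference of 0.05. Saa1, which encodes serum amyloid A, a secreted protein of inflammation, read 2.51, 2.55, 4.29, 4.63 and 3.38 in the vehicle livers and 3.89 to 5.85 with a median of 4.61 in the dosed ones. Mice 1 and 2 of the vehicle group were the lowest, and mouse 2 was the only vehicle liver of slide 1. Of the 9 dosed livers 4 exceeded all vehicle livers. The difference was 1.25 (0.37 to 2.14, adjusted p = 1), and within slides 1, 2 and 3 it was 2.26, 0.14 and 1.83. Saa2, its neighbour on chromosome 7, followed with 1.10 (95% interval 0.39 to 1.80) and 2.12, -0.03 and 1.69 within slides. Saa1 and Saa2, 2 of the 3 higher members, are near copies, and their probes may share signal. Before normalization the reference channel was also brighter in the dosed livers, by 0.80 at Saa1 and 1.00 at Saa2, against 1.94 and 2.11 in the liver channel. Lcn2, the iron-binding lipocalin of the acute phase, was higher by 0.66 (95% interval 0.08 to 1.24), whereas Cp, ceruloplasmin, was lower by 0.19 (95% interval -0.31 to -0.07, with 7 of 9 dosed livers below every vehicle liver). Of 22 interferon genes 0 were higher and 2 lower (1.69% of all probes were lower), Ifi27l2a by 0.58 (95% interval -1.09 to -0.07) and Oasl2, a 2'-5' oligoadenylate synthetase-like protein, by 0.34 (95% interval -0.66 to -0.03).

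Of 15 genes of the unfolded protein and integrated stress response 2 were nominally higher, beside 1.87% of all probes. Asns, a target of ATF4 in the integrated stress response, read -5.53, -5.01, -4.81, -5.05 and -5.28 in the vehicle livers and -5.20 to -3.31 with a median of -3.90 in the dosed livers. Of the 9 dosed livers 7 lay above all vehicle livers. The difference was 1.11 (0.43 to 1.80, adjusted p = 1), at 0.84, 0.76 and 1.68 within slides 1, 2 and 3. Trib3, a pseudokinase induced through ATF4 and CHOP, was higher by 0.86 (95% interval 0.16 to 1.56). Chac1, a glutathione-degrading enzyme of the same response, differed by -0.42 (95% interval -0.96 to 0.11) and was not a nominal call. Asns and Trib3 were the 2 called members of 15 tested, and the list median was 0.02. Heat shock proteins gave 0 called of 11. Their list mean, relative to the vehicle mean, was 0.99 in mouse 7 of D1 and 0.62 in mouse 2 of D0, against -0.38 to 0.07 in the other 12 livers.

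**Figure D2:**
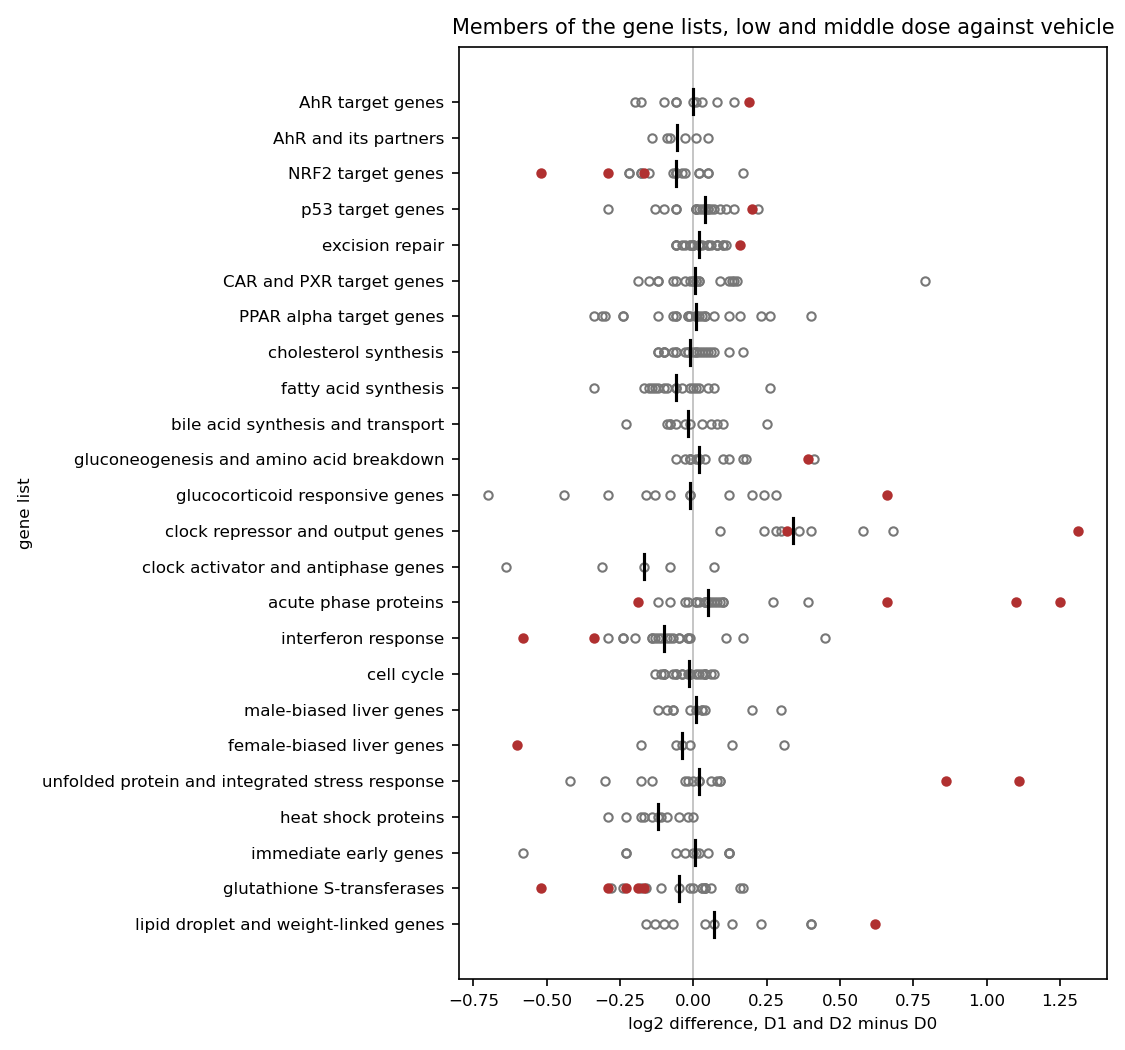
Log2 difference, D1 and D2 minus D0, of every tested member of the gene lists. Filled red points were nominal calls, open points were not, and black bars mark the list median. The list medians run from -0.17 for the clock activator and antiphase genes to 0.34 for the clock output genes, and the members with the largest differences are Dbp at 1.31, Saa1 at 1.25 and Asns at 1.11.

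Metabolic lists gave few nominal calls. There were 0 among 20 CAR and PXR targets, 25 PPAR alpha targets, 22 cholesterol synthesis genes, 18 fatty acid synthesis genes, 12 bile acid genes and 22 cell cycle genes. Cyp2b10, the marker P450 of CAR, had a wide spread. It read 3.75, 1.33, 3.53, 3.25 and 4.17 in D0 and 2.34 to 4.88 in the dosed livers. The difference of 0.79 (-0.35 to 1.93) was within that spread, and within slides 1, 2 and 3 it was 2.70, 0.48 and 0.13, mouse 2 being the vehicle mouse of slide 1. Without mouse 2 it was 0.32. Pck1, the rate-limiting enzyme of gluconeogenesis, was higher by 0.39 (0.15 to 0.62), with 6 of 9 dosed livers above all vehicle livers. Within slides 1, 2 and 3 the Pck1 difference was 0.78, 0.22 and 0.29. Before normalization its reference channel was brighter in the dosed livers by 0.35 and its liver channel by 0.75. Among 11 lipid droplet and weight-linked genes tested Lpl, lipoprotein lipase, was higher by 0.62 (95% interval 0.05 to 1.19). Over all 24 lists 355 of 381 distinct members were tested, and 12 were higher and 9 lower, or 5.92%, beside 3.56% of all probes, with 0 after adjustment. These calls include Per3 and Cyp3a44, each tested mainly through the groups where it read high. The lists were chosen with earlier results of these data known, so this share is a description and not a test.

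Hepatic genes with a sex bias follow the pulses of growth hormone. Of 7 female-biased genes tested 0 were nominally higher and 1, Cyp3a44, lower (1.69% of all probes were lower). It read 0.54, 0.15, 0.73, 0.55 and 1.80 in D0 and -0.01 to 0.73 in the dosed livers. Mouse 5 was the highest vehicle liver. The probe was well above background in 4 of 5 vehicle livers, 1 of 5 D1 livers, 0 of 4 D2 livers and 1 of 5 D3 livers. It thus passed the filter on dim probes mainly through the vehicle group, the dosed level is mostly a bound, and no difference is given. Its call is therefore not read as a result about the list, and no other female-biased gene was called. Of 11 male-biased genes 0 were called.

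Some of the largest single-gene differences in bright probes were positive. Sult1e1, estrogen sulfotransferase, was higher by 1.39 (0.25 to 2.54), from 1.37, 1.69, 2.22, 0.84 and 3.12 in D0 to 1.95 to 4.52 in the dosed livers. Only 4 of the dosed livers exceeded mouse 5, the highest vehicle liver. Slc25a25, a mitochondrial ATP-Mg carrier, was higher by 0.97 (95% interval 0.33 to 1.62), with 2 dosed livers above every vehicle liver and -0.25 within slide 1 and 1.25 and 1.24 within slides 2 and 3. Bmf, a BH3-only activator of apoptosis, was higher by 0.84 (95% interval 0.34 to 1.35), and 8 of 9 dosed livers lay above every vehicle liver. Ces2b, a carboxylesterase, was higher by 0.67 (95% interval 0.22 to 1.12), at -0.16, 1.11 and 0.82 within slides. Arl4d, a small GTPase, was higher by 0.65 (95% interval 0.25 to 1.06) and by 0.89 in D1 (95% interval 0.43 to 1.35). Its D2 difference was 0.36 (95% interval -0.13 to 0.85). The D1 livers read 2.64 to 2.81, above the highest vehicle liver at 2.36 (all D1 livers lay above all vehicle livers in 0.227% of probes), whereas the D2 livers read 1.61 to 2.75 and were lower than D1 by 0.53 (95% interval -1.02 to -0.04).

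Among the negative ones were both Foxa1 and Foxa2. Foxa2, a pioneer transcription factor of the liver, read 5.69, 6.18, 6.05, 6.44 and 6.38 in the vehicle livers and 5.18 to 6.14 with a median of 5.37 in the dosed livers. Of the 9 dosed livers 7 lay below all vehicle livers. Its difference was -0.66 (-1.05 to -0.27, adjusted p = 1), at -0.86, -0.68 and -0.45 within slides, and both probes gave the difference (-0.66 and -0.64). Foxa1, its paralogue, was lower by 0.62 (95% interval -1.12 to -0.11), with 8 of 9 dosed livers below every vehicle liver and -0.72, -0.58 and -0.46 within slides. Acnat2, which conjugates fatty acids to amino acids, was lower by 0.82 (95% interval -1.39 to -0.26), in 7 of 9 dosed livers below all vehicle livers. Tff3, a mucosal trefoil peptide, was lower by 0.91 (95% interval -1.70 to -0.12), with a reference channel that was lower by 0.49 as well. Rgs3, a GTPase activator, was lower by 0.67 on its brightest probe and up to 0.07 higher on others. Zdhhc22, a palmitoyltransferase, was lower by 0.64, Inhba, the activin subunit, by 0.56 and Lgalsl by 0.48 (95% intervals -1.11 to -0.17, -0.97 to -0.16 and -0.91 to -0.04). Asap2 and Pheta2 were lower by 0.57 and 0.54, with mouse 1 of the vehicle group highest in both at 2.86 and 2.66. Without mouse 1 these differences were -0.34 and -0.19.

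**Figure D3:**
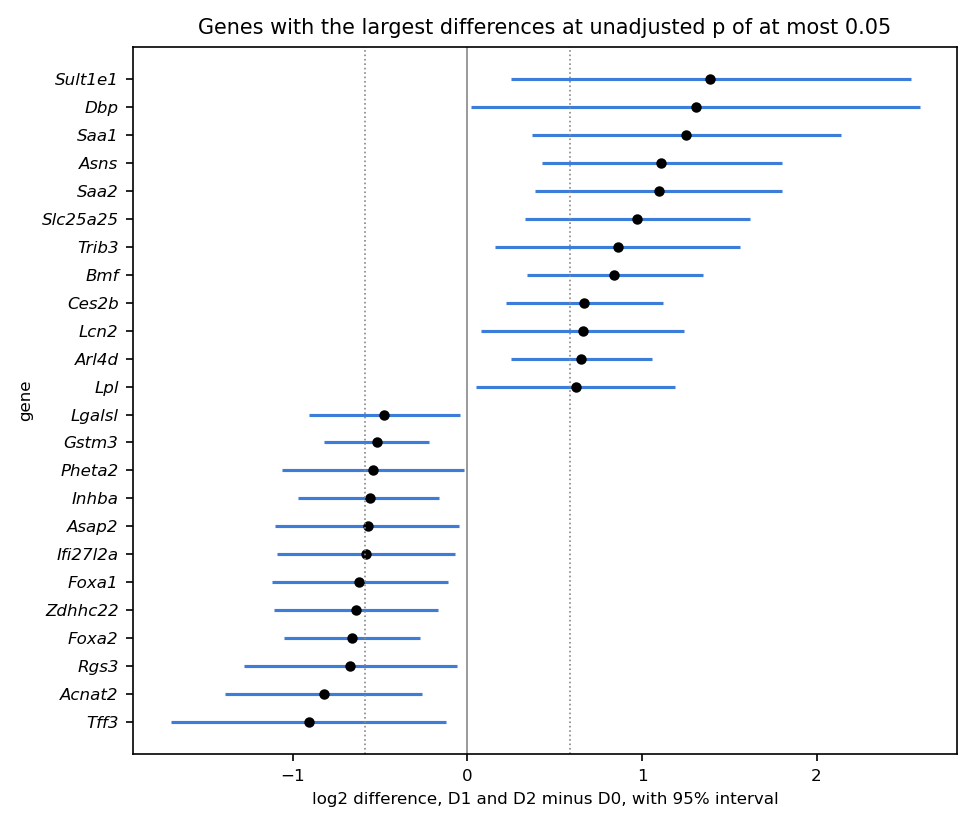
Log2 difference, D1 and D2 minus D0, with the 95% interval (bars), for the 12 genes with the largest positive and the 12 with the largest negative difference among nominal calls in bright probes. Dotted lines mark a fold of 1.5. Intervals reach from Sult1e1 at 1.39 (0.25 to 2.54) to Tff3 at -0.91 (-1.70 to -0.12), and none passed the adjusted test.

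Macrophage markers were nominally lower in D2, and few were in the pooled doses. Kupffer cells are the resident macrophages of the liver and clear debris from the blood. In bulk tissue, fewer cells of a type and less RNA per cell cannot be told apart. Of 9 listed markers 7 were tested. In D1 and D2 pooled against D0, 2 of these were nominally lower (1.69% of all probes were), 7 had differences below 0 and the median was -0.18. In D2 against D0, 5 of 7 were nominally lower (1.79% of all probes were), 7 had differences below 0 and the median was -0.57. In D1 against D0, 0 of 7 were lower (1.78% of all probes were), with a median of 0.11. In D2 against D1, 6 of 7 were lower, beside 1.63% of all probes. None passed the adjusted test. The 5 became 1 with normexp background correction, 2 with median centring or the array column as a covariate, and 3 without mouse 5, 11 or 15.

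Clec4f, a C-type lectin specific to Kupffer cells, read 5.39, 5.02, 5.74, 5.26 and 6.06 in D0, 5.71, 5.56, 5.60, 5.47 and 5.23 in D1, and 4.74, 4.85, 4.66 and 4.34 in D2. All 4 D2 livers lay below all 10 livers of D0 and D1, as in 0.0728% of all probes. The D2 difference was -0.85 (-1.21 to -0.48, adjusted p = 0.942), and D2 was lower than D1 by 0.87 (95% interval -1.23 to -0.50, adjusted p = 1). In D3 Clec4f averaged 5.48 ± 0.25 (SD, n = 5), within the D0 range.

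Vsig4, a complement receptor, was lower in D2 by 0.72 (95% interval -1.08 to -0.35), reading 4.53, 4.88, 5.10 and 4.08 against a range of 5.10 to 5.82 in D0. Adgre1, which encodes F4/80, read -0.25, -0.27, -0.21 and -0.34 in D2 and 0.00 to 0.43 in D0 (difference -0.42, 95% interval -0.74 to -0.11), without overlap, while 0.55% of all probes had every D2 liver below every D0 liver. Marco, a scavenger receptor, was lower by 0.64 and Timd4, a receptor for dying cells, by 0.57 (95% intervals -1.23 to -0.05 and -1.13 to 0.00, the last bound lying just under 0). Timd4 was well above background in 2 of 4 D2 livers. Csf1r, the receptor that macrophages need to survive, differed by -0.32 and Cd5l, a secreted macrophage protein, by -0.53 (95% intervals -0.65 to 0.01 and -1.10 to 0.03).

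Averaged over the 7 markers and set against the vehicle mean, the D2 livers stood at -0.67, -0.43, -0.25 and -0.97, the D1 livers between -0.16 and 0.46 and the vehicle livers between -0.26 and 0.62. Mouse 13 of D2 thus overlapped the vehicle, at a level just above mouse 1 of D0. Within slides 1, 2 and 3 the D2 minus D0 difference of this mean was -0.32, -0.90 and -0.43, with 1 D2 liver each on slides 2 and 3. Hepatocyte markers differed by a median of 0.02 in D2 (8 of 8 tested, 0 called). B cell and T cell markers differed by medians of 0.04 and -0.08, with 0 called (3 of 6 and 5 of 6 tested). Some of these lymphocyte probes were dim, Cd2 and Cd5 being well above background in 3 and 7 of 19 livers. A small change in them may not have been detectable.

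**Figure D4:**
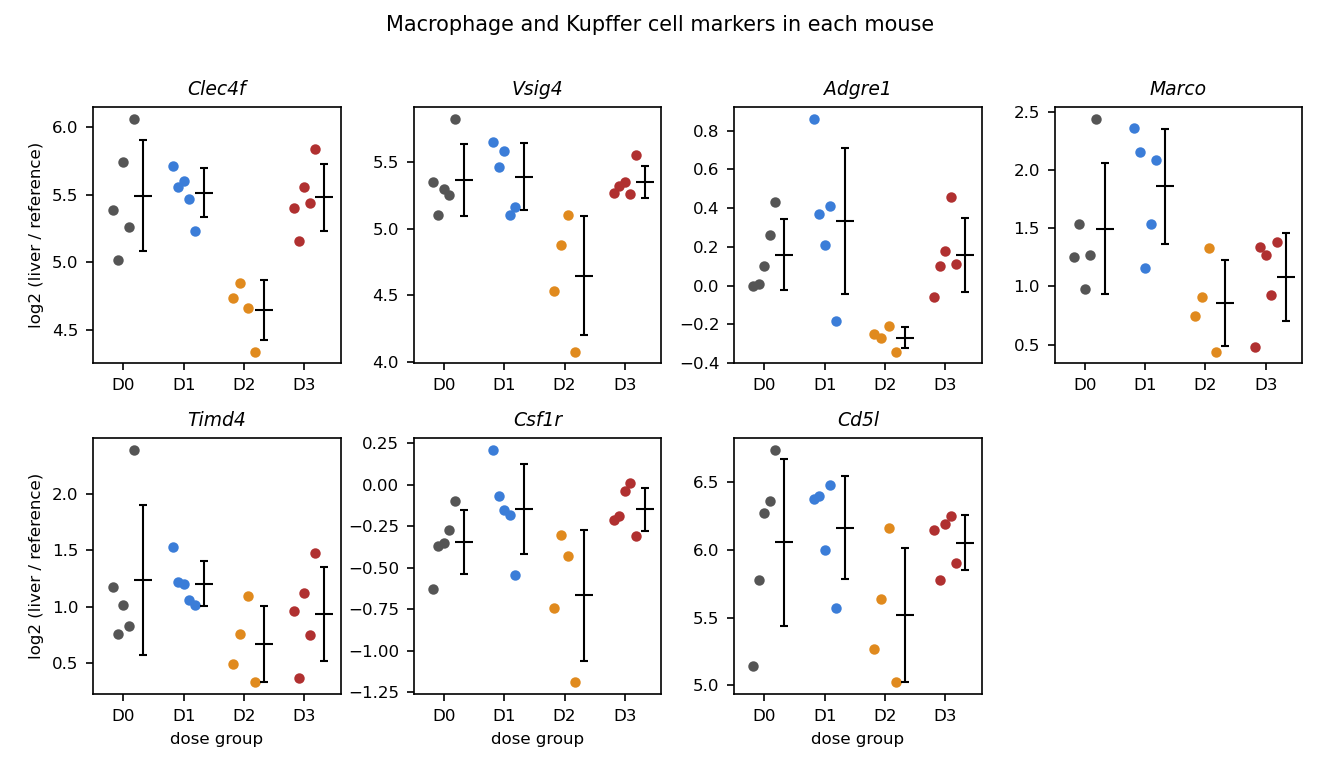
Log2 ratio of liver over reference (vertical axis, scale differs by panel) of the 7 macrophage and Kupffer cell markers by dose group. Points are mice, bars are mean and SD. Clec4f and Adgre1 in D2 lie below every D0 liver, while D1 and D3 overlap D0.

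Clock genes set 2 of the D2 livers apart. The promoters of the E-box genes Tef and Ciart and of the activator are shown because these members read high and low in the same livers. The Tef promoter (chr15:81802423-81802722, plus strand) holds 1 CACGTG, which reads the same on both strands and occurs in 7.15% of promoters, at -127. A second Tef start (chr15:81811164-81811463, plus strand) holds 1 as well, at -138. That of Ciart (chr3:95882179-95882478, minus strand) holds 3, at -116, -58 and -44. The second Arntl start (chr7:113207261-113207560, plus strand) holds 1 AGGTCA, the core of REV-ERB and ROR sites, found in 16.3% of promoters, on the plus strand at position 32. The windows of Dbp and Per3 hold 0 CACGTG and the first Arntl start 0 AGGTCA. The capitals mark these motifs.
Tef: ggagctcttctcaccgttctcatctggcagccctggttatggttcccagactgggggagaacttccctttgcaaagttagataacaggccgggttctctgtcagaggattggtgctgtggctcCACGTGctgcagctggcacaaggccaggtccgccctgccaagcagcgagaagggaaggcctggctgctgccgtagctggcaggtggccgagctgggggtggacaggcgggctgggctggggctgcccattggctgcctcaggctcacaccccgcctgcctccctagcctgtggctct
Ciart: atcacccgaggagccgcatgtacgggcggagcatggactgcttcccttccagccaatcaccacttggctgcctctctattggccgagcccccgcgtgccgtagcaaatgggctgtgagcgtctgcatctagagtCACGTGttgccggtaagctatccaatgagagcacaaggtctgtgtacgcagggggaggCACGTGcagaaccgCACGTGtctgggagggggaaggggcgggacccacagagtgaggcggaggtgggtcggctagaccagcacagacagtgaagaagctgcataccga
Arntl: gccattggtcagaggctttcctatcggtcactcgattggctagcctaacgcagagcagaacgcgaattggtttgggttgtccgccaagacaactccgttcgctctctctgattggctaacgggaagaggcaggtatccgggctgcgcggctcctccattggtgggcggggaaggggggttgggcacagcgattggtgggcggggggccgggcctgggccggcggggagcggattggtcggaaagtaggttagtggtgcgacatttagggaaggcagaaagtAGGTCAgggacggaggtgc

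Among 10 clock repressor and output genes tested, 2, Dbp and Per3, were nominally higher in the pooled comparison, beside 1.87% of all probes, with a median of 0.34. Per3 was well above background in 0 of 5 vehicle livers, 0 of 5 D1 livers, 2 of 4 D2 livers and 1 of 5 D3 livers, so it was tested through the groups where it read high, and without it the count is 1 of 9. In D2 against D0 5 of 10 were higher (4 of 9 without Per3), beside 2.01% of all probes, with a median of 0.67, while in D1 there were 0 (1.83% of all probes). The list mean, relative to the vehicle mean, was 0.23, 0.20, 1.32 and 1.64 in mice 11, 12, 13 and 15 of D2. Vehicle livers ranged from -0.34 to 0.65, D1 livers from -0.29 to 0.67 and D3 livers from -0.19 to 0.72. Without mice 13 and 15, a choice made after seeing the data, 0 of 10 were called in D2 and the median was 0.15. Hours of collection were not in the sources used here, and their part in these values was not tested.

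Dbp, an output factor, read -2.22, -2.12, -0.18, -0.26 and -1.99 in D0 and -0.44, -0.07, 1.92 and 2.13 in D2. Mice 12, 13 and 15 lay above every D0 liver and mouse 11 within their range. Higher values were not particular to D2. In D1 Dbp read -2.28, -1.97, -0.66, 0.98 and -0.04, with mice 9 and 10 above every D0 liver, and in D3 it read 1.09, -0.18, 0.79, 1.16 and -1.69, with mice 16, 18 and 19 above. Against D0 the difference was 2.24 (0.69 to 3.79) in D2, 0.56 (-0.90 to 2.02) in D1 and 1.59 (0.13 to 3.05) in D3. In D2 Tef, a related bZIP factor, was higher by 1.03, Ciart, a repressor, by 0.83 and Usp2, a rhythmic deubiquitinase, by 1.32 (95% intervals 0.32 to 1.74, 0.19 to 1.46 and 0.06 to 2.59). Per3, a period gene, is given no difference, because it was tested through the groups where it read high. Per2 differed by 0.42 in D2. Arntl, the activator, ran opposite, at 1.48, 1.32, 0.49, 0.82 and 1.34 in D0 and 0.71, 0.67, -0.71 and -1.24 in D2 (difference -1.23, 95% interval -2.08 to -0.38). Low Arntl was not particular to D2. Mouse 9 of D1 read -0.10, and mice 16, 18 and 19 of D3 read -0.05, -0.07 and -0.10, below every D0 liver. The other livers of D1 and D3 read 0.84 to 1.57. In D2 Nfil3, a repressor of the clock output genes, differed by -0.62 (95% interval -1.25 to 0.02). Within slide 1, which held mice 11 and 12, the list mean of D2 exceeded that of D0 by 0.47. The only D0 liver there was mouse 2, at -0.25, and mice 11 and 12 lay within the range of all D0 livers. Slides 2 and 3 each held 1 D2 liver, mouse 15 and mouse 13, so their values of 1.18 and 1.65 repeat those mice.

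**Figure D5:**
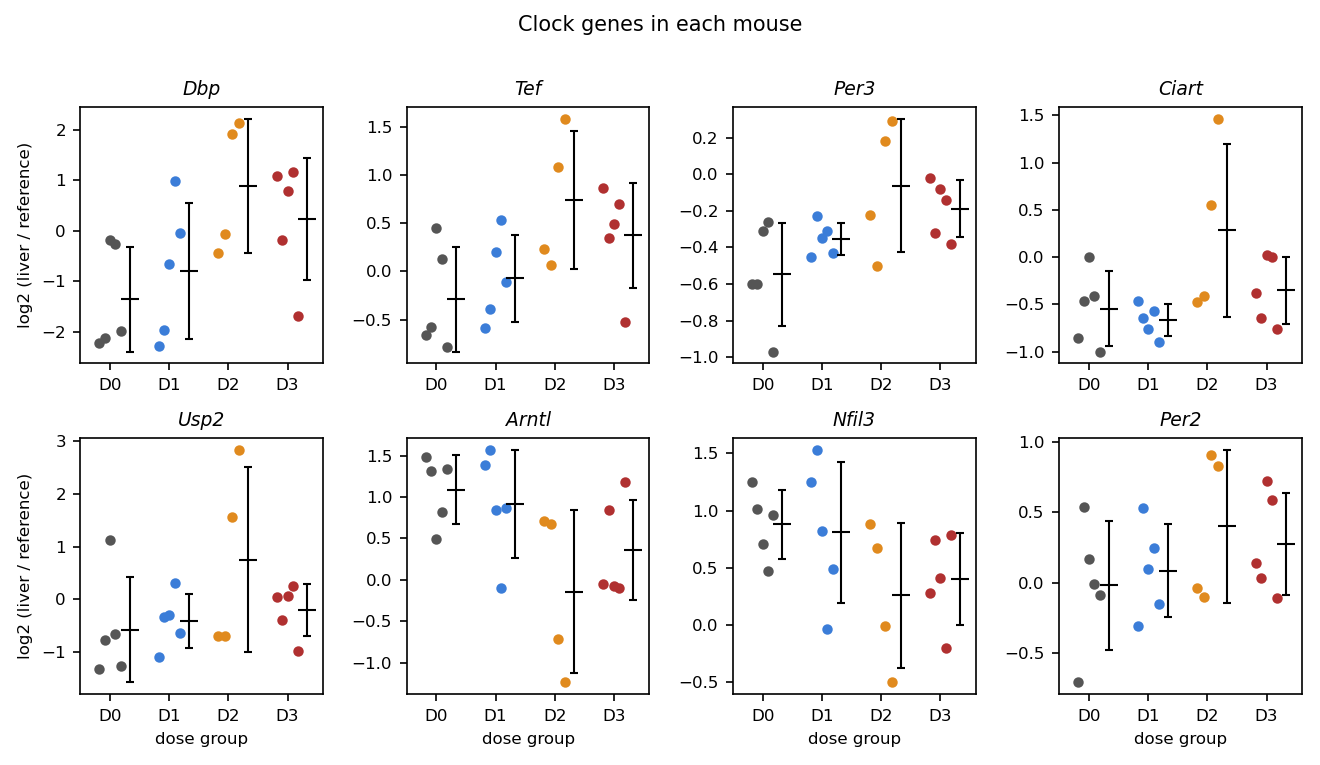
Log2 ratio of liver over reference (vertical axis, scale differs by panel) of 8 clock genes by dose group. Points are mice, bars are mean and SD. In D2, mice 13 and 15 stand high for Dbp at 1.92 and 2.13 and low for Arntl at -0.71 and -1.24, and the other 2 lie within the D0 range for Arntl.

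Between the middle and the low dose, Mfsd2a and Cib3 were among the 4 genes with the largest rise in the nominal calls well above background on every array. Mfsd2a, a lysophosphatidylcholine transporter, was higher in D2 than in D1 by 1.45 (95% interval 0.22 to 2.67), and Cib3, a calcium-binding protein, by 1.06 (95% interval 0.29 to 1.82). Of 22 cholesterol synthesis genes 3 were nominally higher in D2 than in D1, beside 1.95% of all probes, with a median of 0.25, and Idi1, an isopentenyl diphosphate isomerase, was higher by 0.47 (95% interval 0.08 to 0.87). Over the settings the count ran from 0 to 11, and it was 1 without mouse 9 or mouse 11 and 8 without mouse 15. Relative to the vehicle mean, the list mean was 0.57, 0.26, -0.05 and -0.20 in the D2 livers, with mouse 11 highest, and the D2 minus D1 difference within slides 1, 2 and 3 was 0.38, -0.01 and 0.10, with 1 D2 liver each on slides 2 and 3. In the same comparison 0 of 18 fatty acid synthesis genes, 0 of 25 PPAR alpha targets and 0 of 11 lipid droplet and weight-linked genes were called. Against the pooled lower doses D3 had H2-Q1, a class I antigen gene, higher by 0.83 (95% interval 0.20 to 1.46) and Dkk4, a Wnt inhibitor, lower by 0.63 (95% interval -1.14 to -0.12). Dkk4 had been 0.55 higher in D1 and D2 than in D0 and averaged 1.38 ± 0.35 (SD, n = 5) in D3.

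Array quality bore on these values as follows. The share of spots well above background ranged from 33.3% to 45.2% over the 19 livers, and the mean correlation of a liver with its own group, at 0.973 to 0.986, was like that with other groups, at 0.971 to 0.986. Array column on the slide followed dose: all D1 arrays lay in column 2, all D2 arrays in column 3 and D0 arrays in column 1 except mouse 1, so that column and dose can be told apart only through mouse 1 and mouse 20 of D3. With column in the fit, 14 genes passed for the pooled doses, 2 for D1, 19 for D2 and 3 for D3 against the lower doses.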

How the data were processed

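RNA of 19 livers was measured on Agilent 2-colour mouse arrays, 1 per mouse. The authors deposited, per probe and array, a log2 ratio of Cy5 (liver) over Cy3 (reference), which the methods describe as LOWESS-normalized median signal with no background subtracted. The scanner files they deposited hold intensity values as quantified by Feature Extraction 10.7.3.1 and flags (score, 0 or 1) for spots well above background. The log2 ratios were used here, and correlated at 0.997 with ratios recomputed from the intensities. A probe entered the test when 3 or more of the 19 livers had Cy5 flagged well above background, and 179 probes with a non-uniform spot were left out. Of 55681 probes, 26413 (47.4%) were named through RefSeq transcripts of the assembly GRCm38.p6.

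Group means were fitted in limma 3.58.1 (R 4.3.3, lmFit and eBayes, two-sided) on all 19 livers, with D1 and D2 weighted by their 5 and 4 mice. limma stands in for the MAANOVA of the study's methods. P-values were adjusted by Benjamini-Hochberg over all 24716 probes, and a gene counted as changed at an adjusted p of at most 0.05 and a fold of at least 1.5. A gene was read on its brightest probe. Precision is limited by the number of arrays. The members, the 24 gene lists and 12 cell type marker lists were chosen with earlier results of these data known. The text names the 12 largest rises and falls among bright probes, fixed genes and the list members with the smallest p. Background correction, scaling, filters, slide, array column, array weights and each mouse were varied.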

Additional observations from a re-analysis of the deposited data

Results flagged for a closer look

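Within D0, D1 and D2, the highest or lowest mouse of a group was set against the nearest other by Dixon's ratio of gap to range at its 95% critical value. Chance flags about 1 in 20 groups, and 13 of 291 groups (4.47%) were flagged here. In the vehicle group, mouse 5 was lowest for Cyp2s1 at -2.98 and highest for the macrophage marker mean at 0.62, and mouse 3 was highest for Idi1 at 3.53 and for the mean of the glucocorticoid responsive genes at 0.68. In D1, mouse 6 was highest for Scd1, a fatty acid desaturase, at 5.62, mouse 7 for Dnajb1, a heat shock co-chaperone, at -0.26 and for the heat shock mean at 0.99, and mouse 9 for Chac1 at -0.97, Rgs3 at -0.98 and Foxa2 at 5.95. Mouse 10 was lowest for the T cell mean at -0.26. In D2, mouse 13 was lowest for Plk2 at -2.19 and highest for Foxa2 at 6.14. With mice 13 and 15 left out the pooled Foxa2 difference was -0.73.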

How the results depend on the processing

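The count of 0 changed genes held in each of the 5 comparisons under the other normalizations, filters, weights and the slide as a block, and with each mouse left out (lowest 0, highest 0). With the array column as a covariate it became 14 for the pooled doses, 2 for D1, 19 for D2, 0 for D2 against D1 and 3 for D3 against the lower doses. Column nearly repeats dose, and the cause was not tested. Nominal calls (unadjusted p up to 0.05) in the pooled comparison numbered 96 gene names with median centring, 1415 with the slide as a block, 1122 with loess from the scanner values, 1019 with normexp, 2247 without a filter and 606 with a filter on all 19 livers. With each mouse left out they ranged from 801 to 1029.

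Of 61 named genes, Nqo1, Ccng1, Mdm2, Idi1 and Cyp1a2 reached 0 or changed sign in the pooled difference, within-slide values aside. Nqo1 was at 0.00 with the array column, and Ccng1 at -0.02 with array weights and -0.01 without mice 13 and 15. With each mouse left out Mdm2 ranged from -0.01 to 0.09 (lowest without mouse 1, 0.00 without mouse 5), Idi1 from -0.21 to 0.00, Cyp1a2 from -0.01 to 0.06 and Nqo1 from -0.13 to 0.00. The 5 lower macrophage markers of D2 became 1 with normexp and 2 with median centring or the array column, 3 without mouse 5, mouse 11 or mouse 15, and 7 without mouse 13. The clock output genes called in D2 ranged from 0 to 9 of 10, with 0 only when mice 13 and 15 were left out together, and 3 without mouse 15. No paired analysis was possible because the dose groups of liver share no mouse numbers.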
